A study of Mus musculus with 4 samples.

Results

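Store-operated calcium entry is the route by which cells refill their internal calcium stores, and 9 genes of it were followed here in smooth muscle cells sorted from mouse lung: *Cracr2a*, *Cracr2b*, *Stim1*, *Stim2*, *Orai1*, *Orai2*, *Orai3*, *Trpc1* and *Trpc6*. *Cracr2a* was chosen by its difference between Tet3 mutant and control libraries in these same data, so its values are given as a description without a test. The other 8 were chosen by their role beside it, with earlier results of these data known. All 9 were among the 21462 genes of the table and among the 16659 that passed a minimum mean of 10 normalized counts.

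RNA was sequenced from 4 libraries, 2 of each group, all from C57BL/6 mice. The Tet3 mutant group was *Tet3* fl/fl with a tamoxifen-inducible Cre (ERT2Cre) driven by the α-smooth muscle actin promoter and a tdTomato reporter at *ROSA26*. The methods describe controls in general as lacking the floxed allele and carrying the Cre, the reporter or both. The control cells measured here were sorted by the reporter, which Cre switches on, so their mice carried both. Tamoxifen was injected daily from young adulthood, and the methods state this for the mice in general, without naming a group. TET3 oxidizes 5-methylcytosine in DNA. Cells were depleted of CD45+ and Ter-119+ cells with beads and then sorted as tdTomato+ cells, so the promoter that drives Cre also defines the cells measured, and pericytes or myofibroblasts that use it can enter the same gate. The age at collection of these libraries is not given in the sources used here. The study describes the 2 samples of each group as independent animals, and no label ties a library to a particular animal.

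When the calcium store of the endoplasmic reticulum empties, STIM1 and STIM2, calcium sensors in its membrane, cluster near the plasma membrane and open channels built from ORAI1, ORAI2 and ORAI3. CRACR2A and CRACR2B are calcium-binding proteins of the cytosol that bind ORAI1 and STIM1, and a long form of CRACR2A is a large Rab GTPase known from T cells and from endothelial cells. TRPC1 and TRPC6 are cation channels of the plasma membrane. TRPC6 is opened by diacylglycerol, and TRPC1 has been studied as a partner of STIM1. In smooth muscle these routes add to voltage-gated calcium channels in supplying calcium for contraction, store refilling and gene regulation through NFAT.

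*Cracr2a* (ENSMUSG00000061414) lies on the plus strand of chromosome 6 at 127561338 to 127674248 (GRCm38), with 3 annotated transcripts, 2 of them coding, with coding lengths of 930 and 2178 bases. Its exons share 664 bases, or 8.49% of their length, with the noncoding *Gm43634* on the same strand. Gene-level values cannot tell the short form from the long Rab form. *Trpc6* (ENSMUSG00000031997) lies on the plus strand of chromosome 9 at 8544142 to 8680741. These were the 2 members with the largest differences in either direction, and their RefSeq promoters on GRCm38.p6, from 250 bases before to 50 bases after the annotated start, are shown for that reason. Capitals mark CG dinucleotides, the main site of the cytosine methylation on which TET3 acts.
Cracr2a, chr6:127561086-127561385, plus strand: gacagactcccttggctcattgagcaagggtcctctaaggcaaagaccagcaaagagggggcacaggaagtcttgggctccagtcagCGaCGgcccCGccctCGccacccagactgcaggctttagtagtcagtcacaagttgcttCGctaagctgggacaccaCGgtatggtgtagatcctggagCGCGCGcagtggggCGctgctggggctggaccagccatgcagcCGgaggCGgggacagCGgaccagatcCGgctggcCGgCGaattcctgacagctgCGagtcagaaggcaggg
Trpc6, chr9:8543892-8544191, plus strand: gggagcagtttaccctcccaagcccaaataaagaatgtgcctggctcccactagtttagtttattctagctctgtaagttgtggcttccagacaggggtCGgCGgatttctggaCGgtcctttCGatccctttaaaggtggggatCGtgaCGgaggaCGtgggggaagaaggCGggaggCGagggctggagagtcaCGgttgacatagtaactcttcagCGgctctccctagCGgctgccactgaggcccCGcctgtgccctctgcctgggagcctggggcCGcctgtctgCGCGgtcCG
Each of these promoters held 17 CG dinucleotides, a word that reads alike on both strands, and 31.4% of all 32851 promoters of that length held at least as many. The median over all promoters was 7. The promoter of *Stim2* held 39, that of *Stim1* 38, *Orai1* 36, *Orai2* 24, *Trpc1* 22 and *Orai3* 11. These are counts of letters. Methylation was not analysed here.

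The libraries were of similar depth, with an estimated 6.32 M to 7.56 M reads assigned to genes, and counting alone gave an error of 3.11% to 8.13% on the lowest value of each member. The targeted gene was lower in both mutants than in both controls, with *Tet3* at 1847 and 1926 normalized counts against 1534 and 1444. Its log2 difference was -0.34 with an adjusted p of 0.681 (limma, adjusted over all genes). Control replicate 2 stood apart from the other 3 libraries on the first principal component, which held 60.9% of the variance. It had 2 normalized counts of *Xist* against 5214 to 6781 in the others, and 774 of the Y-linked *Ddx3y* against 0, so by these genes sex differed between the controls and not between the mutants. Of smooth muscle markers, all 10 were detected in every library, but their summed level of 5108 to 7952 normalized counts stood beside sums of 12067 to 25984 for 10 alveolar type 2 markers, 13490 to 14944 for 8 endothelial markers and 13999 to 17413 for 7 fibroblast markers. Markers of other cell types than the labelled one were thus present in every library, and the sums are not on a per-length scale. For every difference below, fewer cells of a type and less RNA per cell cannot be told apart.

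*Cracr2a* was lower in both mutants. Control replicate 1 held 685 normalized counts and control replicate 2 held 1127, while Tet3 mutant replicate 1 held 274 and Tet3 mutant replicate 2 held 334. Pairs of values below follow that order of libraries. The groups did not overlap, although the controls lay farther from each other than the mutants did. The control mean was 906 ± 313 (SD, n = 2) and the mutant mean 304 ± 42.4 (SD, n = 2), so the mutants held 33.6% of the control level. The log2 difference was -1.54 with a standard error of 0.27. That error takes no account of the choice of the gene by this difference and is not used as a test. The value moved with the library left out, from -1.18 without control replicate 2 to -1.89 without control replicate 1. Both mutants lay below both controls in 19.5% of all genes tested. *Cracr2a* was chosen for this difference, and of the 8 other members 1, *Stim1*, showed the same order.

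*Cracr2b* (ENSMUSG00000048200, chromosome 7, 141461094 to 141466613), the close relative of *Cracr2a* without the Rab domain of the long form, had 303 and 446 normalized counts in the controls and 250 and 324 in the mutants. The groups overlapped. Its log2 difference was -0.37 with a standard error of 0.25 (95% interval -1.0 to 0.26, adjusted p = 0.715 by limma), and without control replicate 2 it was -0.09. The annotated exons of *Gm10575* on the opposite strand cover 50.8% of those of *Cracr2b*, and the strand setting of the counting is not stated, so the value of *Cracr2b* is uncertain. *Gm10575* itself was listed at 40 to 43 in the 4 libraries.

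The 2 calcium sensors had log2 differences of -0.08 and 0.16. *Stim1* (ENSMUSG00000030987, chromosome 7, 102267806 to 102437319) was listed at 1207 in both controls and at 1128 and 1159 in the mutants. The mutants lay just below the controls, with a log2 difference of -0.08, a standard error of 0.10 and a 95% interval of -0.33 to 0.17 (adjusted p = 0.834 by limma). *Stim2* (ENSMUSG00000039156, chromosome 5, 53998499 to 54121057), the sensor that responds to smaller losses of store calcium, had 700 and 584 in the controls and 719 and 712 in the mutants. Both mutants exceeded both controls, by a log2 difference of 0.16 with a standard error of 0.13 (95% interval -0.18 to 0.50, adjusted p = 0.744 by limma). Without control replicate 2 the difference was 0.03. Both mutants lay above both controls in 19.6% of all genes tested, and 2 members, *Stim2* and *Trpc6*, did so.

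The 3 pore subunits overlapped between the groups. *Orai1* (ENSMUSG00000049686, chromosome 5, 123015074 to 123030456), the subunit of the classical channel, had 227 and 262 normalized counts in the controls and 186 and 235 in the mutants. Its log2 difference was -0.22 with a standard error of 0.19 (95% interval -0.71 to 0.27, adjusted p = 0.757 by limma). *Orai2* (ENSMUSG00000039747, chromosome 5, 136147459 to 136170713, minus strand) had 222 and 159 in the controls and 211 and 207 in the mutants. Here the controls spread over a wider range than the mutants, and the log2 difference was 0.15 with a standard error of 0.22 (95% interval -0.40 to 0.70, adjusted p = 0.858 by limma). It turned to -0.087 without control replicate 2. *Orai3* (ENSMUSG00000043964, chromosome 7, 127769815 to 127775150), a subunit found in mammals, had 328 and 331 in the controls and 300 and 403 in the mutants. The mutants lay on either side of the controls, and the log2 difference of 0.08 with a standard error of 0.18 (95% interval -0.39 to 0.55, adjusted p = 0.92 by limma) turned to -0.13 without Tet3 mutant replicate 2.

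**Figure D1:**
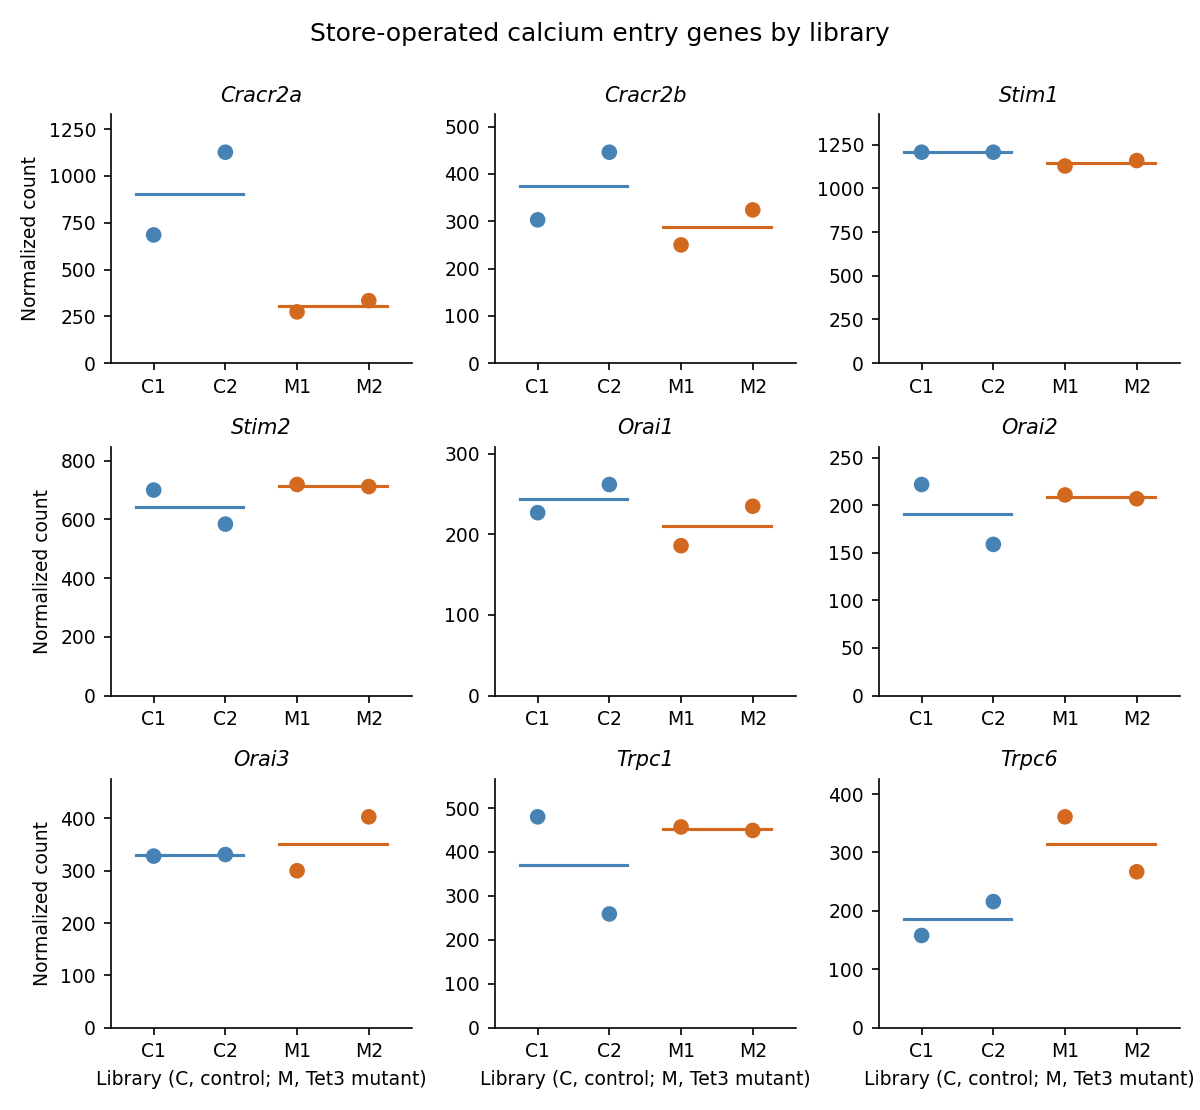
Normalized counts of the 9 genes in each library, with C for control and M for Tet3 mutant replicates; points are libraries and lines are group means, and every axis starts at 0. Groups are apart for *Cracr2a*, *Stim1*, *Stim2* and *Trpc6* and overlap for the other 5 genes.

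The 2 TRPC channels differed from each other in how their libraries lay. *Trpc1* (ENSMUSG00000032839, chromosome 9, 95705082 to 95750375, minus strand) had 480 and 259 normalized counts in the controls and 457 and 449 in the mutants. Only control replicate 2 was low, and without it the log2 difference of 0.36 with a standard error of 0.30 (95% interval -0.41 to 1.13, adjusted p = 0.751 by limma) turned to -0.083. *Trpc6* had 158 and 216 in the controls and 361 and 267 in the mutants. Both mutants exceeded both controls, and the means were 187 ± 41.0 (SD, n = 2) and 314 ± 66.5 (SD, n = 2), a ratio of 1.68. Its log2 difference was 0.75 with a standard error of 0.24 (95% interval 0.13 to 1.37). By limma the unadjusted p was 0.0269 and the p adjusted over all genes was 0.681, so *Trpc6* did not pass the test. Leaving out a library in turn gave log2 differences of 0.52 to 0.97.

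Across the 16659 genes, limma called 0 genes at an adjusted p under 0.05, or 0.0% of those tested, with 1112 genes at an unadjusted p under 0.05. Of these, 638 were higher in mutants, or 3.83% of genes tested, and 474 were lower, or 2.85%. Among the 8 members other than *Cracr2a*, *Trpc6* alone reached an unadjusted p under 0.05, and the other 7 had log2 differences within 0.5 of 0. Their median log2 difference was 0.12 over the 8, against -0.007 over all genes tested, where the median absolute difference was 0.2. The intervals of *Cracr2b*, *Orai1*, *Orai2*, *Orai3* and *Trpc1* reach past 0.5 in at least 1 direction, while that of *Stim1* lies within 0.5 of 0.

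**Figure D2:**
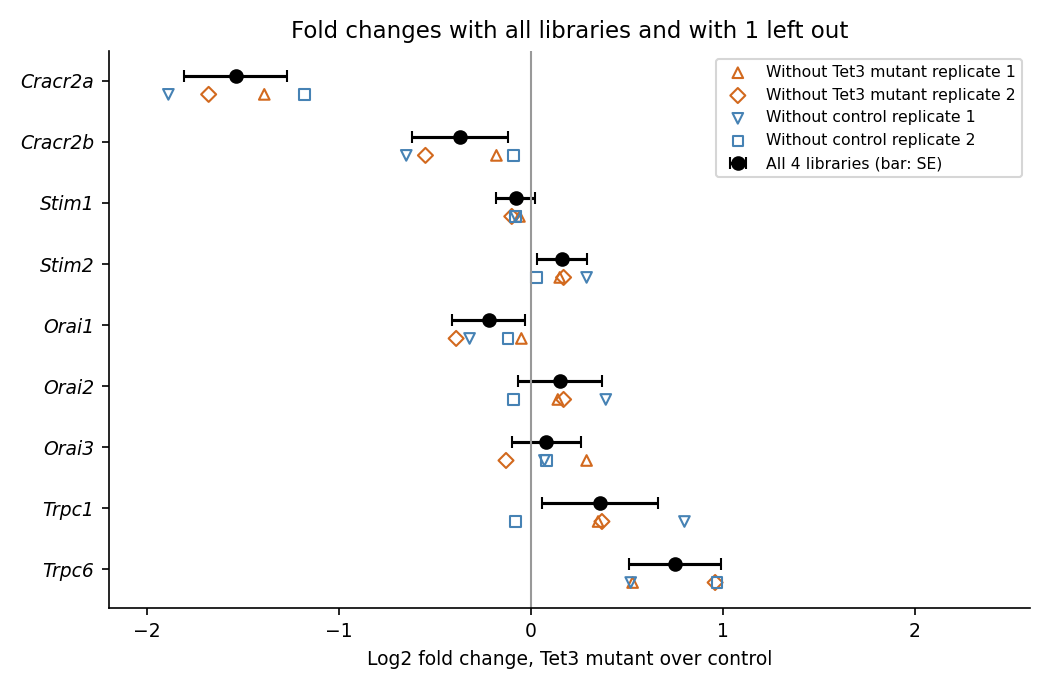
Log2 fold changes of the 9 genes, Tet3 mutant over control, with all 4 libraries (filled points, bars are standard errors) and with each library left out (open symbols). With a library left out, *Cracr2a* ranges from -1.89 to -1.18 and *Trpc6* from 0.52 to 0.97, and *Orai2*, *Orai3* and *Trpc1* cross 0. Genes whose groups do not overlap, such as *Cracr2a* and *Trpc6*, cannot change sign this way. The bar of *Cracr2a* takes no account of its choice by this difference.

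Levels were next compared between the genes as normalized counts per kilobase of annotated exon. *Orai3* had the highest mean level, 159.0 per kilobase, followed by *Stim2* at 132.2, *Cracr2b* at 119.7, *Stim1* at 113.3 and *Orai1* at 99.1. *Cracr2a* had a mean of 77.3, *Trpc1* of 51.2, *Trpc6* of 49.4 and *Orai2* of 32.9. The ranges of 7 of the 8 neighbouring pairs in this order overlapped over the 4 libraries. The exception was the top pair, where the lowest value of *Orai3*, 140.12, lay just above the highest of *Stim2*, 140.07. *Cracr2a* had the widest range, from 35.0 to 144.0, and its place differed between the groups. In the controls its mean of 115.8 per kilobase ranked 5 of the 9 genes, next above *Orai1* at 106.5. In the mutants its mean of 38.9 ranked 8, below *Trpc6* at 62.0 and *Trpc1* at 56.4. The order depends on the length used: per kilobase of the longest transcript *Stim1* came first at 269.4, because its annotated exons include stretches outside that transcript, and *Cracr2a* was at 79.3.

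**Figure D3:**
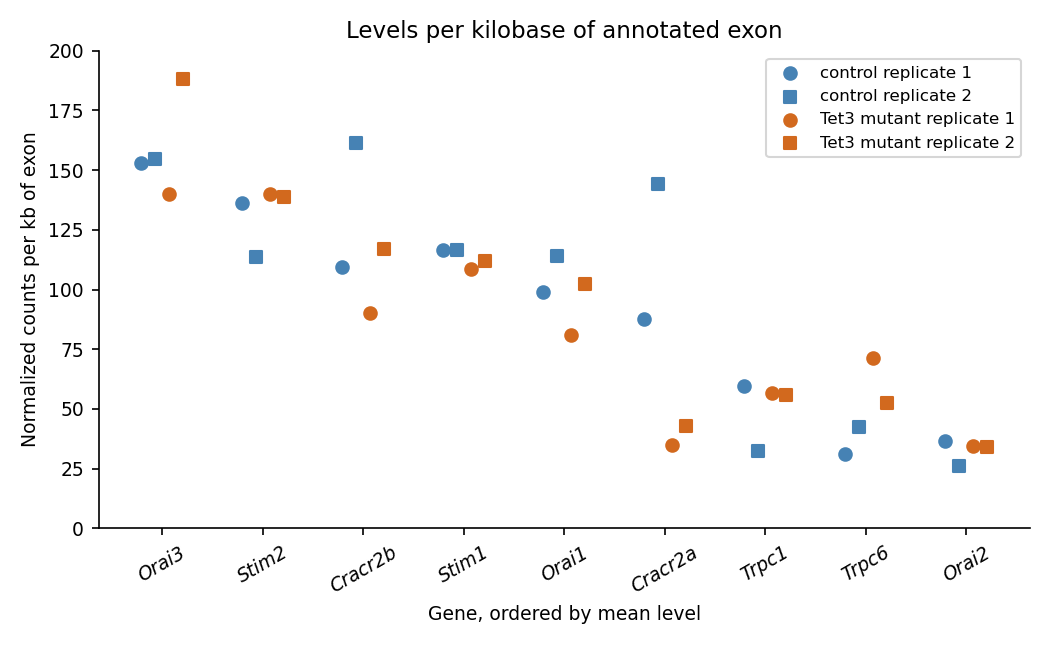
Level of each gene per kilobase of annotated exon in each library, ordered by the mean. Ranges of neighbouring genes overlap except between *Orai3* and *Stim2*, and *Cracr2a* spans 35.0 to 144.0 with both controls above both mutants.

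Within the ORAI family, *Orai3* held the largest share of the summed level per kilobase in every library, 53.1% and 52.4% in the controls and 54.8% and 58.0% in the mutants. The share of *Orai1* was 34.3% and 38.7% in the controls and 31.7% and 31.5% in the mutants, and that of *Orai2* was 8.87% to 13.6%. The summed ORAI level was 288.6 and 294.9 per kilobase in the controls and 255.9 and 324.7 in the mutants, so the mutants lay on either side of the controls. By annotated exon length, *Stim1* and *Stim2* held similar shares of the STIM level. *Stim1* was at 46.0% and 50.6% in the controls and 43.7% and 44.6% in the mutants. This likeness depends on the length used: per kilobase of the longest transcript, *Stim1* had a mean level of 269.4 and *Stim2* of 137.6. In the CRACR2 pair, *Cracr2a* held 44.4% and 47.2% of the level in the controls and 27.9% and 26.7% in the mutants. The limit on *Cracr2b* given above holds for this share too. *Trpc6* held 34.3% and 56.9% of the summed level of the 2 TRPC channels in the controls and 55.6% and 48.5% in the mutants, which overlapped. All these shares rest on annotated exon length, would differ with the longest transcript as length, and were not tested.

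Alveolar type 2 cells are surfactant-producing epithelial cells of the lung. The summed level of their markers was highest in control replicate 2 and lowest in Tet3 mutant replicate 1, as *Cracr2a* was. The share of all genes with that order was not counted, and control replicate 2 stood apart over all genes. All 10 markers had a log2 difference below 0, 9 of them had both mutants below both controls, and 4 had an unadjusted p under 0.05. Over all genes tested, 19.5% had both mutants below both controls and 2.85% were lower at an unadjusted p under 0.05 by limma. The median log2 difference of the list was -0.6 and -0.33 without control replicate 2. The summed level was 17366 and 25984 normalized counts in the controls and 12067 and 15677 in the mutants, and none of the 10 was at 0 in any library. The 2 most abundant were *Slc34a2*, a phosphate transporter, with 3422 and 4664 in the controls and 2500 and 3072 in the mutants, and *Abca3*, a lipid transporter of lamellar bodies, with 3360 and 5981 against 2080 and 2929. Relative to the marker sum, *Cracr2a* stood at 39.4 and 43.4 normalized counts per 1000 in the controls and 22.7 and 21.3 in the mutants. That is a log2 difference of -0.91, beside -1.54 without the division. The ratio reuses the values by which *Cracr2a* was chosen. The part of these cells in the *Cracr2a* difference was not tested.

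**Figure D4:**
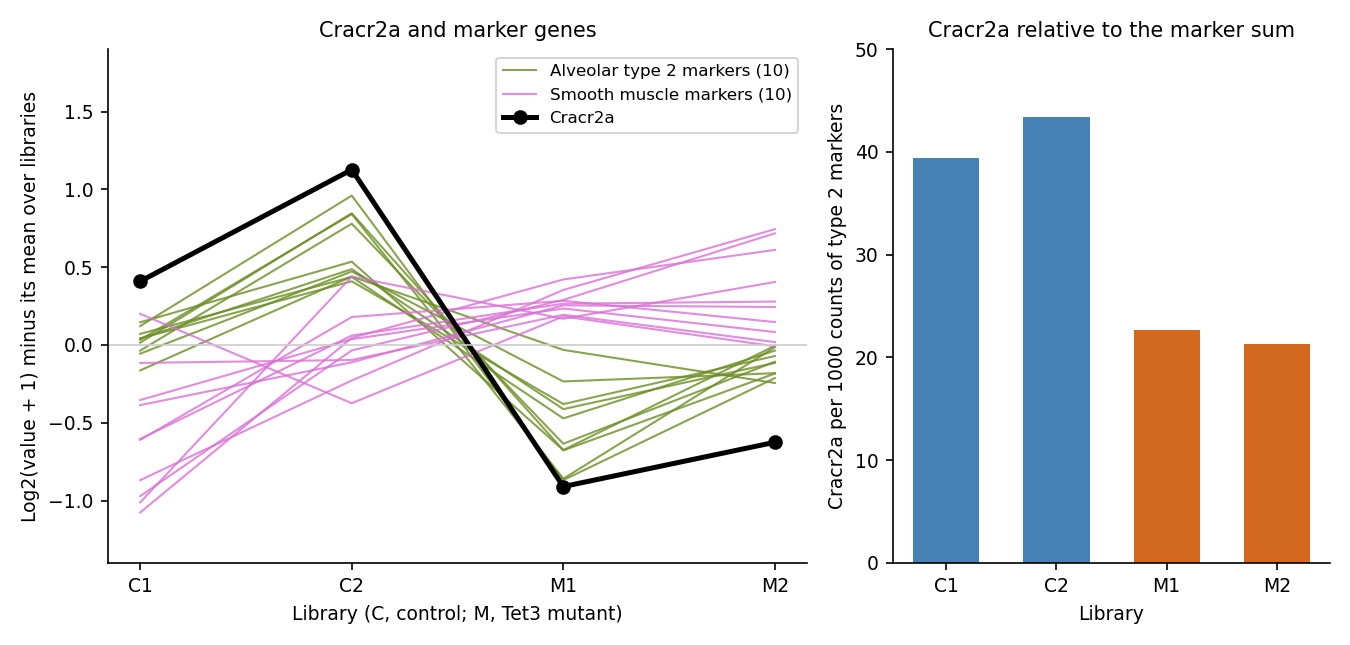
Left, log2(value + 1) of *Cracr2a*, 10 alveolar type 2 markers and 10 smooth muscle markers in each library, each gene centred on its mean; right, *Cracr2a* per 1000 normalized counts of summed alveolar type 2 markers. *Cracr2a* and the type 2 markers are highest in control replicate 2, and the ratio is 39.4 and 43.4 in controls against 22.7 and 21.3 in mutants.

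Sums were also taken for markers of T cells and endothelium, in which CRACR2A is best known. T cell markers summed to 905 and 240 normalized counts in the controls and 940 in each mutant. *Cracr2a* stood at 757 and 4700 per 1000 of that sum in the controls and 291 and 355 in the mutants, a log2 difference of -2.55. All 10 T cell markers had a log2 difference above 0, with a median of 1.13, or 0.13 without control replicate 2. Endothelial markers summed to 13945 and 13490 in the controls and 14944 and 14413 in the mutants, and *Cracr2a* relative to that sum differed by -1.64 on the log2 scale. Alveolar type 1 markers summed to 3627 and 5615 in the controls and 2855 and 3918 in the mutants, and relative to these *Cracr2a* differed by -1.11. This list was mixed: of 6 markers, 2 had a log2 difference above 0 and 4 below, and 0 had both mutants below both controls. None of the T cell or endothelial markers was at 0 in any library. The part of any of these cell types in the *Cracr2a* difference was not tested.

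Smooth muscle markers had differences of the opposite sign to *Cracr2a*, none of them past the adjusted test. All 10 had a log2 difference above 0, 7 had both mutants above both controls, and 4 had an unadjusted p under 0.05. Over all genes tested, 19.6% had both mutants above both controls and 3.83% were higher at an unadjusted p under 0.05 by limma. The median of the 10 markers was 0.52, or 0.29 to 0.85 with a library left out. The sum of these markers was 5108 and 6747 normalized counts in the controls and 7952 and 7612 in the mutants. *Myh11*, the myosin heavy chain of smooth muscle, had 1330 and 2300 in the controls and 2473 and 2249 in the mutants, and *Smtn*, a contractile actin-binding protein, had 1113 and 747 against 1100 and 963, so both overlapped between the groups. *Trpc6* lay on the same side of 0 as these markers. Relative to their sum *Trpc6* stood at 30.9 and 32.0 per 1000 in the controls and 45.4 and 35.1 in the mutants. That is a log2 difference of 0.34, beside 0.75 without the division. Relative to 7 fibroblast markers it was 0.63. Relative to 6 pericyte markers, 5 of them above 0 and 1 below, it was 0.42. *Cracr2a* relative to the smooth muscle sum differed by -1.94. The study ascribes more reads of contractile genes such as *Acta2* and *Cnn1* after *Tet3* loss to spurious transcription. The smooth muscle sum holds both genes, so such a change and the make-up of the cells cannot be told apart by it. How far the make-up of the sorted cells enters the *Trpc6* value was not tested.

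Other marker lists are given by the median log2 difference of their tested genes. It was 0.72 for 8 ciliated cell markers, 0.8 for 7 of neutrophils, 0.41 for 9 of macrophages, 0.42 for 6 of pericytes, 0.6 for 7 of B cells, 0.37 for 3 of platelets and 0.26 for 6 of club cells. The medians were 0.15 for 7 fibroblast markers, 0.09 for 8 endothelial markers, -0.19 for 2 mast cell markers and -0.56 for 6 alveolar type 1 markers. No marker gene passed the adjusted test.

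The genes whose values were most like those of *Cracr2a* over the 4 libraries, by the root mean square difference of centred log2 values, were *Lzts1* (0.0956), *Tlcd4* (0.144), *Aldh1l1* (0.165), *Slc38a4* (0.177) and *Slc6a14* (0.199), out of 12788 genes compared. *Lzts1*, which encodes a leucine zipper protein, had 169 and 329 normalized counts in the controls and 76 and 85 in the mutants. *Aldh1l1*, an enzyme of folate metabolism, had 320 and 682 against 171 and 196. *Slc38a4* and *Slc6a14*, both amino acid transporters, had 217 and 440 against 98 and 148, and 220 and 398 against 101 and 156. Each was highest in control replicate 2 and lowest in Tet3 mutant replicate 1, as *Cracr2a* was, which follows from picking them for their likeness. Among the listed genes the nearest was *Etv5*, a transcription factor on the alveolar type 2 list, at rank 31, followed by *Rasef* at rank 63.

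*Cracr2a* lies 44.1 Mb from the end of *Tet3* on the same chromosome. Within 500 kb of it, 8 other genes were tested, with log2 differences of -1.7 to 0.31 and a median of -0.22. The lowest was *Prmt8*, an arginine methyltransferase gene starting at 127689011, with 181 and 554 normalized counts in the controls and 57 and 163 in the mutants. Its groups did not overlap, and its adjusted p was 0.681 by limma. *Ccnd2*, a D-type cyclin of the cell cycle, was the only neighbour at an unadjusted p under 0.05, with 1169 and 1013 against 1384 and 1319 and an adjusted p of 0.681 by limma.

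The wider calcium pathway was read from 6 lists, none of which held a gene past the adjusted test. Of 19 regulators of store-operated entry, 15 were tested. *Trpc2*, *Trpc4*, *Trpc5* and *Trpc7* were not found among the genes of the table. Of the 15 tested, 12 had a log2 difference above 0 and 3 below it, the median was 0.09, and none reached an unadjusted p under 0.05. *Stimate*, an activator of STIM1 in the endoplasmic reticulum, was the lowest, with 514 and 937 normalized counts in the controls and 461 and 513 in the mutants (log2 -0.51, adjusted p = 0.69 by limma). *Efhb*, an EF-hand protein, was the highest, with 62 and 39 against 87 and 57 (log2 0.51, adjusted p = 0.729 by limma).

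Among 5 large Rab GTPases with EF hands and partners of CRACR2A, *Rasef*, the large Rab GTPase related to the long form of CRACR2A, had 319 and 794 in the controls and 219 and 267 in the mutants. Its log2 difference was -1.05 with an adjusted p of 0.681 by limma, and it came to -0.4 without control replicate 2. *Vav1*, a guanine nucleotide exchange factor of blood cells that binds CRACR2A in T cells, went the other way, with 416 and 352 against 538 and 532 (log2 0.48, unadjusted p 0.0165, adjusted p = 0.681 by limma). The median of the 5 was 0.05.

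Upstream of store release, 5 of 12 genes of phospholipase C and the IP3 receptors lay above 0 and 7 below, with a median of -0.02. *Mrvi1*, which encodes the IP3 receptor-associated substrate of cGMP kinase in smooth muscle, had 241 and 243 in the controls and 422 and 391 in the mutants (log2 0.74, standard error 0.13, unadjusted p 0.0024, adjusted p = 0.681 by limma). *Itpr3*, an IP3 receptor common in epithelia, had 1256 and 1826 against 850 and 1067 (log2 -0.67, unadjusted p 0.0282, adjusted p = 0.681 by limma).

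Calcium pumps and exchangers had 6 of 11 tested genes above 0 and a median of 0.24, which was 0.0 without control replicate 2. *Atp2b4*, a plasma membrane calcium pump, had 1870 and 1646 in the controls and 2276 and 2092 in the mutants (log2 0.31, unadjusted p 0.0423, adjusted p = 0.681 by limma). *Atp2a3*, a pump of the endoplasmic reticulum, was the lowest at -0.24 and *Slc8a3*, a sodium-calcium exchanger, the highest at 0.41 of those with a mean of at least 50. Downstream, 11 of 16 genes of calmodulin, calcineurin and NFAT lay above 0, with a median of 0.04. *Nfatc4*, a transcription factor activated by calcineurin, had 361 and 383 against 591 and 451 (log2 0.47, unadjusted p 0.0384, adjusted p = 0.681 by limma), and *Cabin1*, a calcineurin inhibitor, was the lowest at -0.15. The 8 genes of the mitochondrial calcium uniporter had a median of -0.03, from *Mcur1* at -0.12 to *Mcub*, a pore subunit that dampens uptake, with 152 and 120 against 162 and 238 (log2 0.54).

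**Figure D5:**
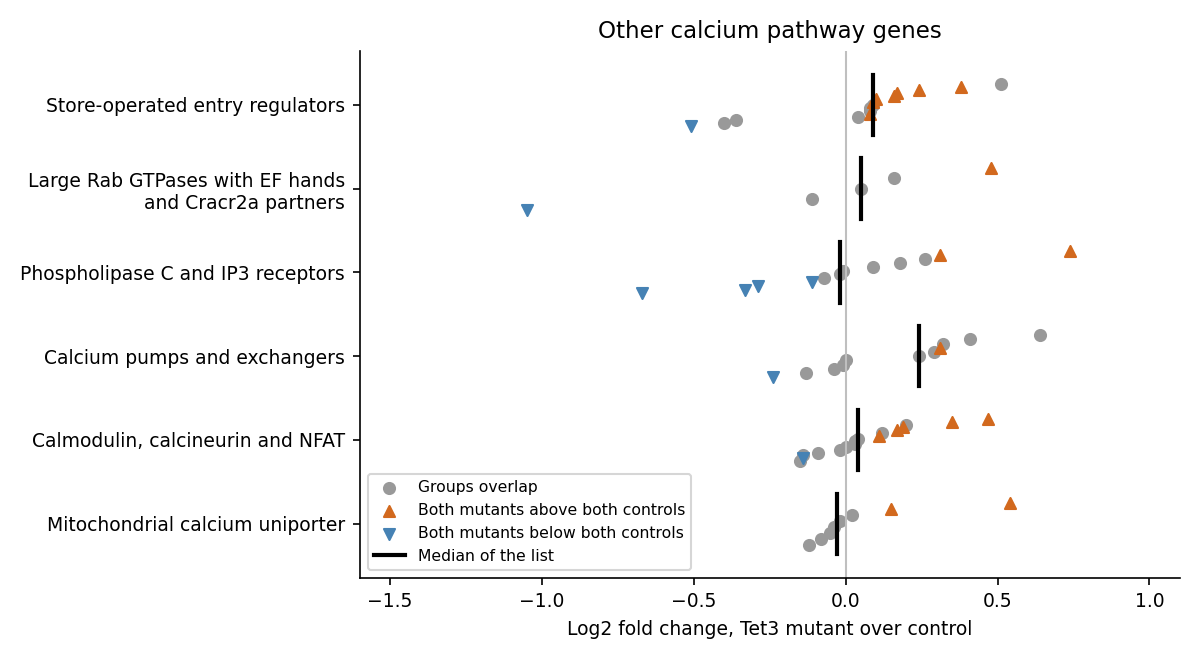
Log2 fold change, Tet3 mutant over control, of every tested gene in the 6 calcium pathway lists, with the symbol giving whether the groups overlap and the black line the list median. Medians lie between -0.03 and 0.24, and the genes farthest from 0 are *Rasef* at -1.05 and *Mrvi1* at 0.74.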

How the data were processed

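Per the authors' methods, ribosomal RNA was depleted and stranded total RNA libraries were sequenced single-end. The submitters' processing notes list Trimmomatic 0.36, STAR 2.6.0c and Subread 1.6.0 on GRCm38 (mm10). The authors counted reads over exons, leaving out those mapping to several places or genes, and scaled the counts with DESeq2. Reads that fit several genes can thus be lost. Of the 50-base words of *Cracr2b* transcripts 39.7%, and of those of *Cracr2a* 8.21%, also occur in transcripts of other genes, on either strand. These words include stretches where another gene overlaps at the same place, so the share of reads lost is not known. The strand setting is not given in the sources used here.

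The unit of the deposited table is a score, namely normalized counts that its authors rounded to whole numbers. Raw counts could not be recovered, so no count model was run. The deposited totals were 7003231 and 7164573 in the controls and 6893578 and 6805272 in the mutants. Scaling factors estimated from gaps among low values gave 7.29 M, 6.81 M, 6.32 M and 7.56 M reads. Counting errors cover counting only, because PCR copies cannot be told from separate molecules.

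Genes averaging at least 10 over the 4 libraries were compared on log2(value + 1) with limma 3.58.1 in R 4.3.3 (lmFit, eBayes with trend). P-values were adjusted by Benjamini-Hochberg over all genes tested, with a threshold of 0.05. The procedure was tested on simulated data. An exact permutation test of 2 against 2 cannot go below 0.333. Exon lengths came from GENCODE M21, where 99.8% of genes were found by identifier, and promoters from RefSeq, where 8 of 9 members matched.

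The members and all gene lists were chosen with earlier results of these data known. Of 180 list genes, 175 were found. Named in addition were, per pathway list, the highest and lowest genes with a mean of at least 50 and those at an unadjusted p under 0.05, the 2 most abundant genes of a marker list, the 5 genes most like *Cracr2a*, and its neighbours by the same p. *Prmt8*, *Gm10575*, *Etv5* and *Rasef* by rank were named after their values were seen.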

Additional observations from a re-analysis of the deposited data

How the results depend on the processing

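Pseudocounts of 0.5 and 8, minimum means of 1 and 50, TMM factors, equal library totals, limma without the trend and each library left out in turn were tried. Of the 9 members, 6 kept the sign of their difference in every setting, the exceptions being *Orai2*, *Orai3* and *Trpc1*, and of 20 list medians 12 did. For *Cracr2a*, *Stim1*, *Stim2* and *Trpc6*, whose groups do not overlap, leaving out a library cannot change the sign. Count models were not run, since raw counts were not recovered.

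Limma without the trend called 1 gene. With equal totals the phospholipase C and IP3 receptor median turned to 0.033, the uniporter median turned to 0.019 and the calmodulin, calcineurin and NFAT median was 0.084. The pump and exchanger median was 0.18 with a pseudocount of 8, 0.12 with a mean of at least 50, 0.26 with TMM factors and 0.29 with equal totals. Per kilobase of the longest transcript the levels were 194.8 for *Cracr2b*, 269.4 for *Stim1*, 121.3 for *Orai1*, 50.1 for *Orai2*, 90.2 for *Trpc1* and 76.9 for *Trpc6*. Relative to the summed alveolar type 2 markers, an alternative chosen after seeing the data, *Cracr2a* differed by -0.91. The cause of these shifts was not tested.

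With the replicate number as a block, limma called 0 genes, with 1637 at an unadjusted p under 0.05, and no other call changed under this replicate block. Same-numbered libraries deviated together with a correlation of 0.134 over 16659 genes in 2 pairs, which does not show that the numbers pair the libraries.

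Leaving out a library in turn kept the adjusted count at 0 to 0 genes and moved the unadjusted count between 273 (without Tet3 mutant replicate 1) and 3366 (without control replicate 1), with 414 without Tet3 mutant replicate 2. The remaining library of a group is then assumed to vary like the other group. The members' median ran from -0.098 to 0.14. Single members ran from -1.89 to -1.18 for *Cracr2a*, -0.65 to -0.09 for *Cracr2b*, -0.098 to -0.058 for *Stim1*, 0.032 to 0.29 for *Stim2*, -0.39 to -0.053 for *Orai1*, -0.087 to 0.39 for *Orai2*, -0.13 to 0.29 for *Orai3*, -0.083 to 0.8 for *Trpc1* and 0.52 to 0.97 for *Trpc6*. Pathway medians ran from 0.05 to 0.16 for entry regulators, -0.19 to 0.08 for large Rab GTPases, -0.053 to 0.013 for phospholipase C and IP3 receptors, 0.004 to 0.18 for pumps, 0.021 to 0.074 for calmodulin and NFAT, and -0.037 to 0.038 for the uniporter. Marker medians ran from 0.29 to 0.85 for smooth muscle, 0.13 to 2.26 for T cells, -0.54 to 1.37 for B cells, -0.52 to 0.15 for mast cells, 0.25 to 0.49 for macrophages, 0.61 to 1.01 for neutrophils, -0.0026 to 0.2 for endothelium, -0.87 to -0.33 for alveolar type 2 cells, -1.02 to -0.1 for alveolar type 1 cells, 0.54 to 0.92 for ciliated cells, -0.23 to 0.52 for club cells, 0.027 to 0.28 for fibroblasts, 0.21 to 0.57 for pericytes and -0.26 to 1.11 for platelets.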
